A study of Mus musculus with 2 samples.

Results

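Retinoic acid is made, bound, broken down and sensed by a small set of proteins, and 10 genes that encode them were examined in primordial germ cells (PGCs) of the mouse, from which oocytes and sperm descend. They encode the retinoic acid receptors Rara, Rarb and Rarg, the retinoid X receptors Rxra and Rxrb, the synthesis enzyme Aldh1a2, the clearance enzymes Cyp26a1 and Cyp26b1, and the binding proteins Crabp1 and Crabp2. The genes were chosen by symbol, and 9 of the 10 had a row in a table of 18877 genes. Rarg had none and was not analysed here. The PGCs were taken at embryonic day 9.5 from C57BL6 embryos, received no treatment and were isolated with an antibody against SSEA1, a carbohydrate antigen on the cell surface. They form 1 group with 2 replicates and no control group, so values are described and no test between conditions was possible. The study describes its RNA-seq replicates as biological, and how many embryos gave each library is not stated in the sources used here. The sources differ on how the libraries were made: the methods name Smart-seq2, which amplifies full-length cDNA from few cells, and the labels name a NEBNext kit.

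Retinoic acid is made from vitamin A. Retinol is oxidised to retinaldehyde, and retinaldehyde dehydrogenases such as ALDH1A2 turn this into retinoic acid. Small cytoplasmic proteins, CRABP1 and CRABP2, carry it inside the cell, and CYP26 enzymes degrade it. In the nucleus, retinoic acid receptors (RARs) bind DNA as heterodimers with retinoid X receptors (RXRs) and switch from repression to activation when the ligand binds. In the germ line, the signal is known for inducing Stra8 and entry into meiosis in the fetal ovary, and CYP26B1 is known for delaying that step in the fetal testis.

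Expression is given as TPM (a transcript level per base of gene length, scaled to the same total in each library), and a gene was counted as detected at 1 TPM or more in both replicates. Reads behind each value were recovered from TPM and exon length, which gave 15912467 reads in replicate 1 and 5458687 in replicate 2, so replicate 1 was 2.92 times deeper. Poisson 95% intervals cover counting error only. All 12 PGC markers examined were detected, from 6.98 TPM for Prdm1 to 5044 TPM for Dppa3 (means of both replicates). The Y-linked genes Ddx3y (7.32 and 5.35 TPM in replicates 1 and 2) and Uty (1.47 and 1.13 TPM) were detected in both libraries, although the methods describe the embryos as female.

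The data showed a pathway with abundant transcripts of the binding proteins and few of the receptor genes measured, which leave out Rarg. Crabp2 and Crabp1 held 90.2% of the summed TPM of the 9 genes in replicate 1 and 85.2% in replicate 2. Detection at 1 TPM or more in both replicates was reached by 4 of 9 members (Crabp2, Crabp1, Aldh1a2 and Rxrb), beside 60.0% of all genes. The members' median on the log2(TPM + 1) scale was 0.91 in replicate 1 and 1.23 in replicate 2, beside 1.89 and 1.85 for all genes. The range was wide, from the 89th percentile of all genes for Crabp2 to a listed 0 for Cyp26a1 in replicate 1 and for Cyp26b1 in replicate 2.

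**Figure D1:**
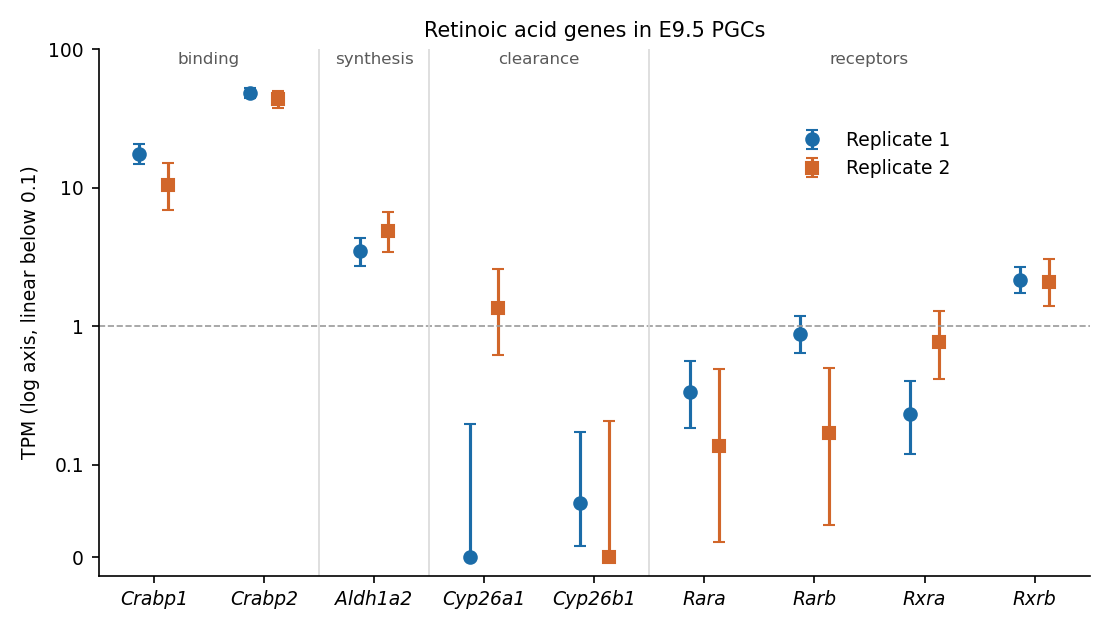
TPM of the 9 genes in each replicate (circles, replicate 1; squares, replicate 2), with exact Poisson 95% intervals from recovered reads; the axis is logarithmic above 0.1 TPM and linear below it, and the dashed line marks 1 TPM. Both binding protein genes lie above 10 TPM in each replicate, while Rara, Rarb, Rxra and Cyp26b1 lie below 1 TPM.

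Transcripts of the binding proteins were highest. Crabp2, which is known for delivering retinoic acid to RARs in the nucleus, lies on chromosome 3 (87948666 to 87953376, build GRCm38). It was at 48.2 TPM in replicate 1 and 43.7 TPM in replicate 2, a mean of 45.9 ± 3.22 TPM (SD, n = 2), from 606 and 193 reads. Its level was thus much the same in both libraries, with a ratio of replicate 2 to replicate 1 of 0.906 and a 95% interval of 0.766 to 1.07. Its rank was at the 89.2nd percentile of all genes in replicate 1 and at the 89.0th in replicate 2.

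Crabp1, the paralog associated with holding retinoic acid in the cytoplasm, lies on chromosome 9 (54764748 to 54773110). It was at 17.6 TPM in replicate 1 and 10.4 TPM in replicate 2, a mean of 14.0 ± 5.04 TPM (SD, n = 2), from 134 and 28 reads. The lower value was in the shallower library, and the intervals of each value overlapped (14.7 to 20.8 and 6.94 to 15.1 TPM), while the interval of their ratio, 0.381 to 0.898, did not include equality. Crabp2 exceeded Crabp1 2.74-fold in replicate 1 (95% interval 2.27 to 3.33) and 4.18-fold in replicate 2 (2.80 to 6.46). The direction was the same in both libraries, and the intervals of the 2 ratios overlapped.

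The enzymes lay lower. Aldh1a2, which catalyses the last step of retinoic acid synthesis in most embryonic tissues, lies on chromosome 9 (71215789 to 71296243). It was at 3.48 TPM in replicate 1 and 4.89 TPM in replicate 2, a mean of 4.19 ± 0.992 TPM (SD, n = 2), from 75 and 37 reads. These intervals overlapped (2.74 to 4.37 and 3.44 to 6.74 TPM). Crabp2 was 13.8-fold above Aldh1a2 in replicate 1 and 8.93-fold above it in replicate 2. Aldh1a2 is also a gene of mesodermal tissue, so markers of mesonephric, coelomic and gonadal epithelium were read beside it. Of 9 such markers 7 had a row and 3 were detected, their summed TPM was 7.33 and 8.48, and the highest was Lhx1 at 3.07 TPM. Emx2 (1.402 and 1.79 TPM) and Wt1 (1.07 and 1.21 TPM) were detected in both libraries, and Nr5a1, the lowest of the list, had 2 reads in replicate 1 and was listed at 0 in replicate 2. The part of such cells in the Aldh1a2 value was not tested, and in bulk RNA more cells of a type and more RNA per cell cannot be told apart.

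The clearance enzymes were near the limit of detection. Cyp26b1 (chromosome 6, 84571414 to 84593908), the CYP26 enzyme of the fetal testis, was at 0.0590 TPM from 3 reads in replicate 1 and was listed at 0 in replicate 2, where 3 reads, the limit used for a count of 0, would be 0.168 TPM. The two-sided 95% intervals, which are wider than that one-sided limit, reached 0.172 TPM in replicate 1 and 0.206 TPM in replicate 2, both below 1 TPM.

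Cyp26a1 (chromosome 19, 37697798 to 37701536), whose transcription is a classical response to retinoic acid, was the member with the least agreement between libraries. It was listed at 0 in replicate 1, where 3 reads would be 0.159 TPM and the two-sided interval reached 0.196 TPM, and was at 1.35 TPM in replicate 2 from about 9 reads (0.621 to 2.58 TPM). The deeper library was the one without a read. Its read number is approximate, since it did not come out whole with the exon length used here. With a pseudocount of 1 on each side, the sum of both Cyp26 genes minus Aldh1a2 was -2.08 (log2) in the first replicate and -1.33 in the second, a mean of -1.7 ± 0.535 (SD, n = 2), so clearance transcripts were below the synthesis transcript in both libraries.

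The receptors were low. Rxrb (chromosome 17, 34031812 to 34038399), the RXR with broad expression in the embryo, was the highest of the 4 receptor genes measured at 2.16 TPM in replicate 1 and 2.10 TPM in replicate 2, a mean of 2.13 ± 0.0417 TPM (SD, n = 2). About 82 and 28 reads lay behind these values, again approximate because they did not come out whole. Rxrb sat near the middle of all genes, at the 45.9th percentile in each replicate.

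Rxra (chromosome 2, 27676440 to 27762957), another RXR and common partner of RARs, was at 0.231 TPM in replicate 1 and 0.767 TPM in replicate 2, a mean of 0.499 ± 0.379 TPM (SD, n = 2), from 12 and 14 reads. Its intervals were separate (0.119 to 0.404 and 0.419 to 1.29 TPM), with the higher value in replicate 2. Rxrb exceeded Rxra 9.35-fold in replicate 1 (5.10 to 18.9) and 2.74-fold in replicate 2 (1.40 to 5.65).

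Rara (chromosome 11, 98927818 to 98974942), the most widely expressed RAR, was at 0.337 TPM in replicate 1 and 0.137 TPM in replicate 2, a mean of 0.237 ± 0.142 TPM (SD, n = 2), from 14 and 2 reads. The intervals overlapped, and Rara was below 1 TPM in both libraries.

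Rarb (chromosome 14, 16430839 to 16819156), the RAR gene that is itself induced by retinoic acid, was at 0.879 TPM in replicate 1 and 0.170 TPM in replicate 2, a mean of 0.525 ± 0.501 TPM (SD, n = 2), from 44 and 3 reads. The value of replicate 1 was the higher, and the intervals (0.639 to 1.18 and 0.0351 to 0.498 TPM) were separate. Of its 5265 exonic bases 1793 (34.1%) also lie in exons of Top2b on the opposite strand, a gene at 4.05 and 3.32 TPM. The sources used here give no strand setting for the counting, so the reads of Rarb and Top2b cannot be told apart there. Rarb exceeded Rara 2.61-fold in replicate 1 (1.40 to 5.15), and in replicate 2 their ratio of 1.24 had an interval of 0.142 to 14.9.

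Summed TPM of Rxra and Rxrb was 2.39 in replicate 1 and 2.87 in replicate 2, and that of Rara and Rarb was 1.22 and 0.307. The log2 ratio of the RXR sum to the RAR sum was 0.98 in the first replicate and 3.22 in the second, a mean of 2.1 ± 1.59 (SD, n = 2). The direction was shared, but the RAR sum leaves out Rarg, and in replicate 2 it rested on 2 reads of Rara and 3 of Rarb. The order of Rxra and Rara changed between libraries, Rara being higher in replicate 1 and Rxra in replicate 2.

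In the order of mean TPM (Crabp2, Crabp1, Aldh1a2, Rxrb, Cyp26a1, Rarb, Rxra, Rara, Cyp26b1), the first 4 genes were each separated from the next. For these 4 steps the lower of the 2 values of the higher gene lay above both values of the lower gene, and intervals were separate in both libraries for the first 3 of them, whereas those of Rxrb and Cyp26a1 overlapped in replicate 2. Between Cyp26a1, Rarb, Rxra and Rara the ranges of neighbours overlapped, and the order of these genes is not resolved by these 2 libraries. Rara lay above Cyp26b1 in both, but their intervals overlapped in replicate 2.

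**Figure D2:**
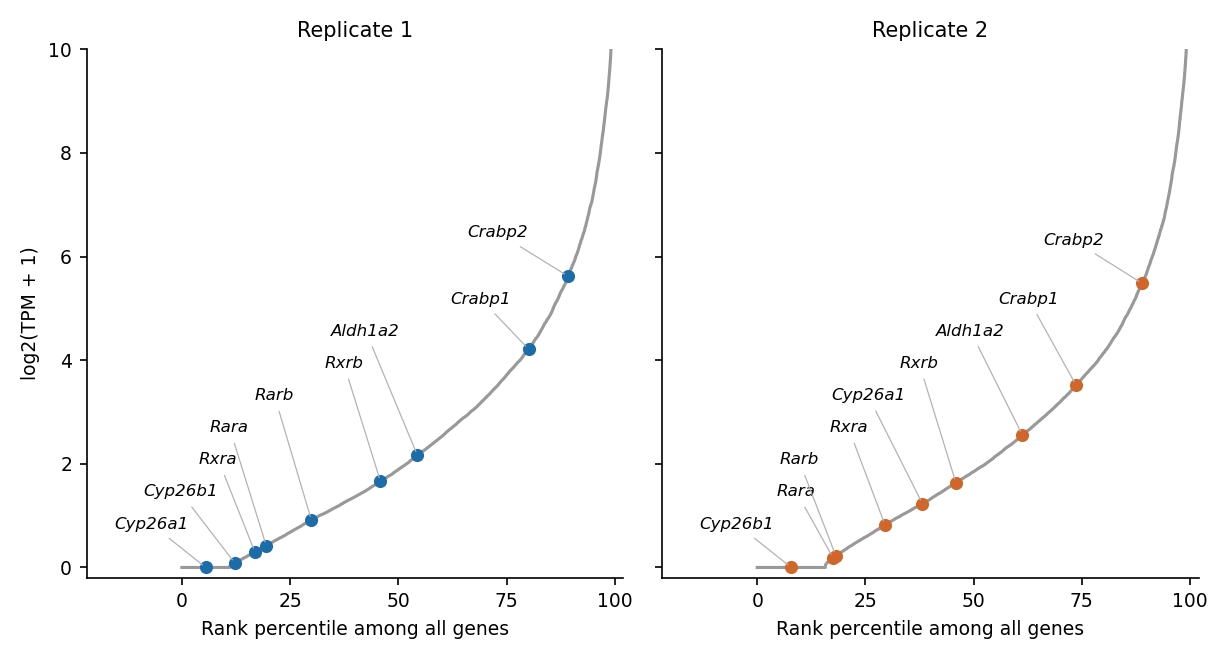
Each gene's log2(TPM + 1) against its rank percentile among all 18877 genes (grey curve), in replicate 1 and replicate 2; the vertical axis ends at 10 and leaves out the most abundant genes. Crabp2 sits near the 89th percentile in both panels, while Rara, Rarb, Rxra and Cyp26b1 lie on the low, left part of the curve.

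The promoters of Rarb and Cyp26a1 carry a retinoic acid response element of the classical form. These sequences are shown because both genes are known as direct targets of the receptors, and other members may be targets too. Promoter windows covered 250 bases before to 50 after each transcription start (RefSeq, build GRCm38.p6). Windows were held for 9 of 10 members, and Crabp2, with none, was not searched. Each was searched on both strands for direct repeats of the half-site AGGTCA (or, in place of it, AGTTCA, the form GGGTCA, or the form GGTTCA) with a spacer of 5 bases. Such repeats were found in 2 member genes, Rarb and Cyp26a1, and in 32 of 32851 promoter windows of all genes (0.0974%). Repeats with a spacer of 1 base (0.222% of windows) or 2 bases (0.268%) were found in no member window. A match in letters is a description of the window and shows no binding. The repeats are in capitals, on the strand on which they read as written, with 6 flanking bases.
Rarb, chr14:16575507-16575535, minus strand: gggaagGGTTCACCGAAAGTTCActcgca
Cyp26a1, chr19:37697770-37697798, minus strand: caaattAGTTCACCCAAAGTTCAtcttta

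The Rarb repeat lies 53 to 37 bases before the RefSeq start, on the strand of the gene. It overlaps an exon annotated for Rarb in GENCODE M21. The Cyp26a1 repeat lies 32 to 16 bases before the RefSeq start, on the strand opposite to the gene and upstream of its annotated first exon. The 240 bases upstream of the annotated Cyp26a1 gene read as follows on the strand of the gene, with the repeat in capitals.
Cyp26a1 promoter, chr19:37697558-37697797, plus strand: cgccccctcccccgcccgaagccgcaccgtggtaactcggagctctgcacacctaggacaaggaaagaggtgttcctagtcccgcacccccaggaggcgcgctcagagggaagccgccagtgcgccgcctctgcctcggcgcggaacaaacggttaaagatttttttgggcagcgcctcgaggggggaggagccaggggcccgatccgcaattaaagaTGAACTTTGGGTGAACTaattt

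Levels of these 2 genes are those given above, with Rarb under 1 TPM in both libraries and Cyp26a1 above 1 TPM in replicate 2 alone. Of the 31 genes with such a repeat in a promoter window, 6 had a row in the table, and 3 of them were detected in both replicates. Of these 3, Blvrb was at 3.33 and 2.58 TPM, Ppbp at 4.66 and 1.93 TPM, and the embryonic globin Hbb-y at 927 and 1025 TPM. Hbb-y is also one of the erythroid markers described below, and the part of blood cells in these 3 values was not tested.

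Other steps of retinoid metabolism were represented by transcripts at higher levels than most members. Of 31 further genes for retinoid metabolism, transport and binding, 18 had a row and 14 were detected, with a median log2(TPM + 1) of 2.34 in replicate 1 and 2.36 in replicate 2. The highest were Rdh14, a retinol dehydrogenase, at 57.9 and 37.0 TPM, and Adh5, an alcohol dehydrogenase that chiefly handles formaldehyde adducts, at 40.6 and 48.5 TPM. Rdh5, a dehydrogenase known from the visual cycle, followed at 28.9 and 24.6 TPM. Dhrs4, a retinal reductase, was at 16.4 and 9.55 TPM. Poisson intervals were separate between libraries for Rdh14 and Dhrs4, both higher in replicate 1, and for Adh5, higher in replicate 2.

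The remaining genes of the route to retinoic acid were low. Rdh10, the main retinol dehydrogenase of the early embryo, was at 2.17 TPM in replicate 1 and 1.22 TPM in replicate 2, a mean of 1.7 ± 0.673 TPM (SD, n = 2). The other retinaldehyde dehydrogenases lay under Aldh1a2, with Aldh1a1 at 0.362 and 0.364 TPM and Aldh1a3 at 0.638 and 0.648 TPM. Aldh1a2 was thus the highest of the 3 Aldh1a genes in both libraries. Dhrs3, which reduces retinaldehyde back to retinol, was at 0.323 and 1.23 TPM, and Lrat, which stores retinol as esters, was at 4.07 and 1.17 TPM. Fabp5, which can pass retinoic acid to another nuclear receptor, was at 10.3 and 7.71 TPM, with an interval below that of Crabp1 in replicate 1 and overlapping it in replicate 2.

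Coregulators of nuclear receptors were present throughout. All 18 listed genes had a row, 16 were detected, and their median log2(TPM + 1) was 2.78 in replicate 1 and 2.73 in replicate 2. Ncor1, a corepressor that binds RARs without ligand, was the highest at 13.6 and 13.1 TPM (mean 13.3 ± 0.319, SD, n = 2). Crebbp, an acetyltransferase and coactivator, was at 13.0 and 11.2 TPM. Tbl1x, a subunit of the corepressor complex, was at 7.64 and 10.3 TPM, Kat2b, an acetyltransferase, at 8.84 and 8.97 TPM, and the coactivator Ncoa3 at 9.26 and 8.26 TPM. Each of these 5 was above every receptor gene measured, in both libraries.

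Other nuclear receptors that pair with RXRs were also low. Of 13 listed genes 6 had a row, and 0 were detected in both replicates. The highest mean belonged to Nr1h2, a liver X receptor, at 1.10 and 0.713 TPM. Pparg was at 1.57 TPM from 44 reads in replicate 1 and was listed at 0 in replicate 2. The others named here were Nr1i3 at 0.572 and 0.813 TPM, the thyroid hormone receptor Thra at 0.410 and 0.908 TPM, and Nr4a1 at 0.959 and 0.256 TPM.

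Genes known as induced by retinoic acid were mostly low. Of 19 listed genes 11 had a row, 3 were detected, and their median log2(TPM + 1) was 0.68 in replicate 1 and 0.93 in replicate 2. Stra8, the inducible gene of meiotic entry, was at 0.642 TPM from 11 reads and 0.332 TPM from 2 reads. Rec8, a meiotic cohesin, was at 1.004 and 2.34 TPM, and Meis1, a homeodomain factor, at 0.529 and 1.05 TPM. By mean TPM the highest was Nrip1, a corepressor that retinoic acid induces, at 3.26 and 2.74 TPM. Rarres2, at 3.80 and 0.901 TPM, was above it in replicate 1 and below it in replicate 2.

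**Figure D3:**
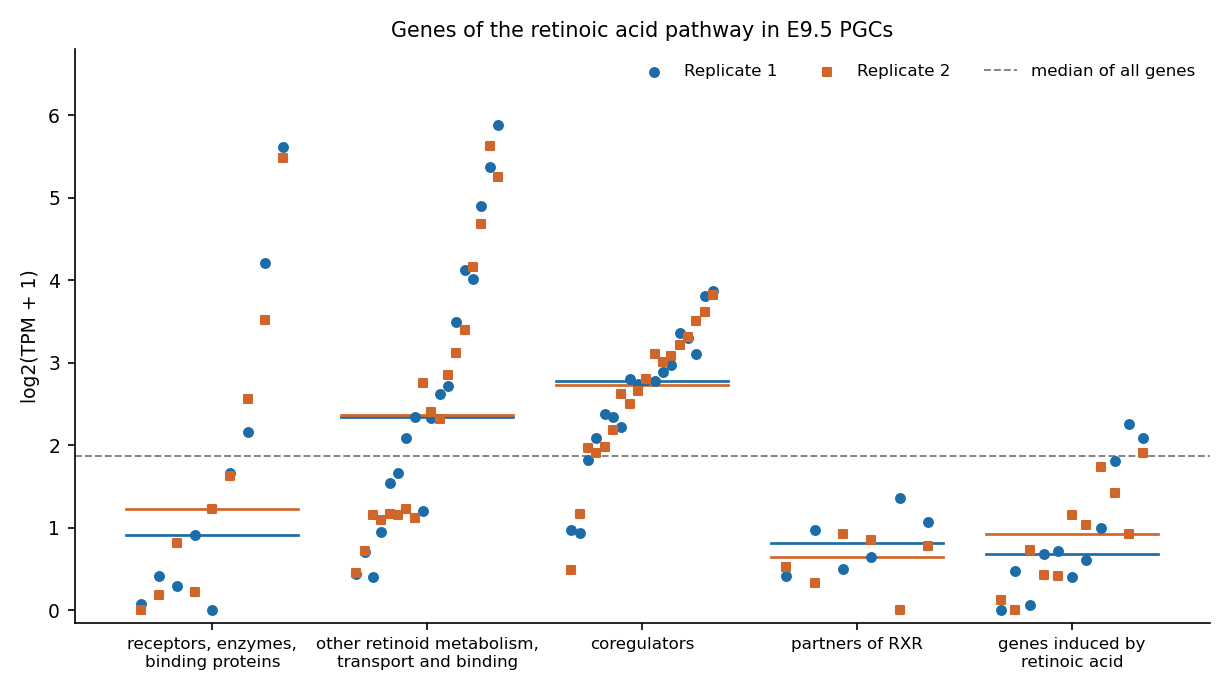
log2(TPM + 1) of each gene with a row in 5 lists of the retinoic acid pathway, in replicate 1 (circles) and replicate 2 (squares), with genes ordered by mean TPM within each list; coloured lines are list medians and the dashed line is the median of all genes (1.87). Coregulators and other retinoid genes have medians above the dashed line, and the other lists, members included, have medians below it.

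Finally, both libraries were compared for the members. On the log2(TPM + 1) scale 1 of 9 members, Cyp26a1, differed more than 2-fold, beside 10.2% of all genes. This scale understates differences between low genes. In plain TPM the ratio of replicate 2 to replicate 1 was 0.194 for Rarb, 3.32 for Rxra and 0.406 for Rara. The interval of the Rara ratio, 0.0448 to 1.77, included equality. The share of all genes beyond 2-fold in plain TPM was not computed. Poisson intervals were separate for 3 of 9 members (Rarb, Rxra and Cyp26a1), beside 24.7% of genes with recovered reads, a share close to that of the members. Of the 9 members 6 were lower in replicate 2, beside 9688 lower and 7715 higher among all 18877 genes. The members' median difference was -0.08 (-0.01 for all genes). These values compare the libraries and not any condition. Rarb, Rxra and Cyp26a1 had at most 44 reads in either library. For Crabp1, with 134 and 28 reads, the intervals overlapped but the interval of the ratio, given above, did not include equality.

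**Figure D4:**
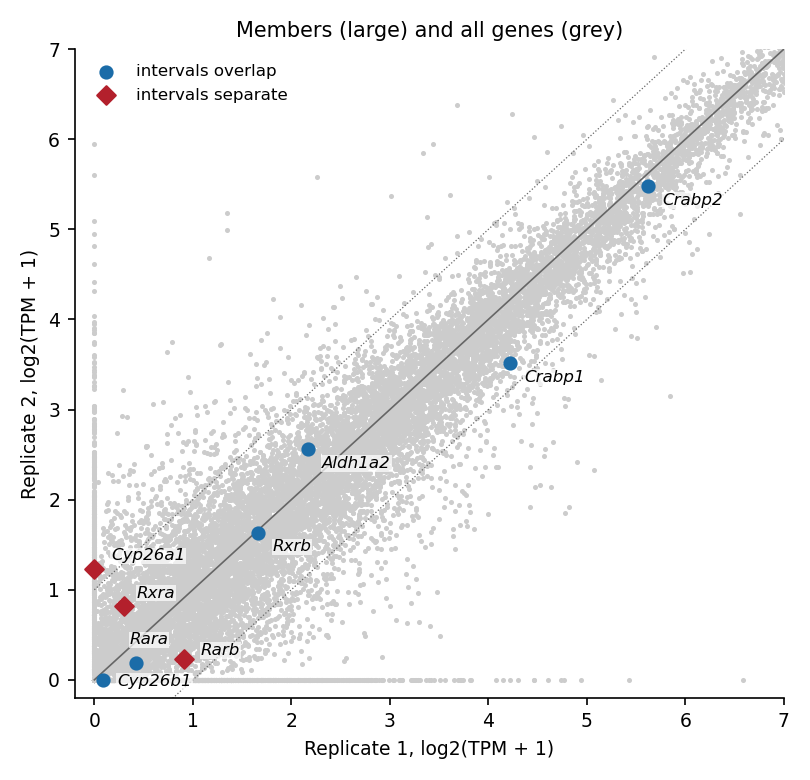
log2(TPM + 1) in replicate 2 against replicate 1 for the 9 members (large symbols) and all genes (grey). Both axes end at 7, the solid line marks equality and dotted lines a 2-fold difference in TPM + 1, not in plain TPM. Cyp26a1 is the member outside the dotted lines, and red diamonds mark the 3 members whose Poisson intervals were separate.

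Markers of other cells were read beside these values. Erythroid markers were abundant, with 6 of 7 genes in the table detected, summed TPM of 4002 and 3780, Hba-x highest at 2198 TPM and Klf1 lowest at 0.920 TPM (means). Of 10 neural crest and neural markers, a lineage known for high Crabp1, 4 had a row and 3 were detected, with summed TPM of 7.08 and 8.14 and Pax6 highest at 3.55 TPM. The crest markers Sox10, Foxd3, Tfap2a, Tfap2b and Pax3 were among those without a row, so the sum covers chiefly neural genes. Mesenchyme markers summed to 2.37 and 3.95 TPM over 5 genes with Lum listed at 0 in both libraries, and gut and visceral endoderm markers to 2.10 and 3.97 TPM over 5 genes with Foxa1 listed at 0. Endothelial and macrophage markers summed to 32.3 and 20.5 TPM over 9 genes, from 9.11 TPM for Pecam1 to 0.329 TPM for Cldn5. The neural, mesenchyme and endoderm sums were higher in replicate 2, and the endothelial and macrophage sum was higher in replicate 1. The part of such cells in the members' values was not tested.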

How the data were processed

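RNA-seq of E9.5 PGCs was represented by a table of TPM values that the authors deposited, with a column for each of 2 replicates. Per the methods, reads were aligned to mm10 with Hisat2 and counted per gene with featureCounts. The submitters' processing notes list Bowtie2, HISAT2, RSEM, R and DESeq2 without roles. The annotation, strand setting and handling of shared reads are not stated. TPM is relative, so a few abundant or short genes lower all others.

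Symbols were matched to GENCODE M21 (GRCm38, the assembly of mm10), with a single gene for 18748 symbols and none for 129. TPM times summed exon length gave whole multiples of 1 amount per library, interpreted as 1 read. Values below 50 reads came out within 0.02 of a whole number in 96.7% (replicate 1) and 95.8% (replicate 2) of cases. Exact Poisson intervals, exact (Clopper-Pearson) intervals of ratios and a limit of 3 reads for a zero followed. No molecular identifiers are described, so reads need not be independent molecules. Recovery was tested on simulated data.

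Values were analysed as log2(TPM + 1), which understates differences between low genes. With 1 group no test was possible. Members and lists were chosen with earlier results of these data known. The rule named all members, the 5 highest genes of each pathway list, genes listed at 0 in both libraries, and the 2 highest and 2 lowest of each marker list, of which the extremes are given. Some genes that the rule named are not reported here. Rdh10, Aldh1a1, Aldh1a3, Dhrs3, Lrat, Fabp5 and Stra8 were named for their role after their values were seen, as were Top2b, Emx2, Wt1, the crest markers without a row and the genes with a response element. Alternatives were another pseudocount, detection thresholds, filters, scalings, gene choices and leaving out each replicate. Protein sequences were not used here. Software was Python 3.11.15, scipy 1.17.1, pandas 2.3.3, numpy 2.4.6 and matplotlib 3.10.9.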

Additional observations from a re-analysis of the deposited data

How the results depend on the processing

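Alternatives gave 39 values for 10 results. Direction was judged only for the log2 ratios and the median difference between replicates, and 0 of those values reversed. Counts and medians have no direction in this sense. Of the 39 values, 18 left out a replicate, and with 2 replicates such a mean always moves by less than their SD, so these say nothing of stability. Of the other 21, 6 were labelled as the same and 15 as moved. The limit was that SD, or 1.5-fold for a count. The median difference between replicates has no SD, so any shift beyond a small fixed tolerance was labelled as moved, however slight. Detection fell to 2 members at 5 TPM, and leaving out a replicate gave 4 to 5. A pseudocount of 0.1 gave 0.25 for the members' median, -3.14 for clearance against synthesis and -0.14 for the median difference between replicates. It gave list medians of 2.07 for other retinoid genes, 2.55 for coregulators, -0.42 for partners of RXR and -0.26 for induced genes. A filter at a mean of 1 TPM leaves fewer genes and gave 3.11 for members (4 genes), 2.69 for other retinoid genes, 2.79 for coregulators, 1.77 for induced genes and -0.0836 for the median difference. No partner of RXR passed it. Cyp26b1 alone against Aldh1a2 gave -2.32. Crabp1 against Crabp2, at -1.69 ± 0.395, was -2.48 in reads not divided by length. Leaving out a replicate gave ranges of 0.91 to 1.23 for the members' median, 0.98 to 3.22 for RXR against RAR, -2.08 to -1.33 for clearance against synthesis and -1.96 to -1.41 for Crabp1 against Crabp2. In an alternative chosen after seeing the data, leaving out a library moved the mean TPM by over 1.5 times for 5 of 9 members (Rara, Rarb, Rxra, Cyp26a1 and Cyp26b1) and 13 of 51 pathway genes, among them Pparg, Rarres2, Lrat, Dhrs3, Thra, Nr4a1 and Rec8. Their values in each library are those given above. The share of all genes was not computed for this alternative, so both counts lack a background. No paired analysis was possible because there is 1 group.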
